A study of Mus musculus with 12 samples.

Results

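The collagen gene family was followed in skeletal muscle RNA of GPR120 knockout (KO) and wild-type (WT) mice on 2 diets. Members were taken by symbol: every probe set whose annotation gave a single gene symbol made of Col, a number, the letter a and a number. Of 18193 genes with such a probe set, 42 were collagens, read by 82 probe sets, and 27 of them had several probe sets. The probe set with the highest mean over the arrays stood for its gene, and 25 of the 42 passed the filter on low values (mean log2 signal above 3.78). By class the filter kept 8 of 11 fibrillar, 7 of 9 basement membrane, 3 of 5 microfibrillar and 7 of 17 other collagens.

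There were 12 mice aged 16 weeks in 4 groups of 3: WT on normal diet (WT ND), WT on high fat diet (WT HFD), KO on normal diet (KO ND) and KO on high fat diet (KO HFD). GPR120, the product of Ffar4, senses long-chain fatty acids at the plasma membrane, and the KO groups differ from WT by its deletion per the labels. All 4 groups share a background that mixes 129/Sv and C57BL/6. Each mouse gave 1 biotin-labelled Affymetrix array, and the values are the authors' MAS5 signals on the log2 scale. The labels give neither sex, muscle site, length of the diet nor the way the gene was deleted.

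Collagens are extracellular proteins built of chains wound into a helix. Fibrillar collagens (types I, III and V in muscle) form the cable-like fibrils of the connective tissue sheaths around fibres and fascicles, and are made chiefly by fibroblasts. Type IV forms the sheet-like network of basement membranes, which types XV and XVIII border, and type VI forms beaded microfilaments that link the muscle basement membrane to the fibrillar matrix. Others decorate fibrils, span membranes or belong to cartilage, cornea and skin.

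Promoter windows of 300 bases, 250 before and 50 after the annotated start, were taken from RefSeq (GRCm38.p6) for 33 of the 42 collagens, among them 21 of the 25 measured. Col1a1, Col5a2, Col12a1 and Col14a1 had no entry. The windows shown belong to the 3 fibrillar chains with an entry that rose in KO HFD muscle, and to the type IV pair that serves as their contrast. Capitals mark any of 3 short motifs found on either strand: TATAAA (the TATA box), then CCAAT (the CCAAT box), and finally GGGCGG (the GC box). No match overlaps another in these windows. Col1a2 lies at chr6:4505368-4505667 (plus strand), Col3a1 at chr1:45311288-45311587 (plus), Col5a1 at chr2:27886175-27886474 (plus), Col4a1 at chr8:11312777-11313076 (minus) and Col4a2 at chr8:11312555-11312854 (plus).
Col1a2: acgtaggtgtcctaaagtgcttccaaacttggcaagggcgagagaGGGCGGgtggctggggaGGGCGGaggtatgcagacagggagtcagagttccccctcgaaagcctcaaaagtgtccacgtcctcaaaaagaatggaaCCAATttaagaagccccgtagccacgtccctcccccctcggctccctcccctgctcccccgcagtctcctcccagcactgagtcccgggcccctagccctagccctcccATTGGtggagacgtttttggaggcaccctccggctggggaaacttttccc
Col3a1: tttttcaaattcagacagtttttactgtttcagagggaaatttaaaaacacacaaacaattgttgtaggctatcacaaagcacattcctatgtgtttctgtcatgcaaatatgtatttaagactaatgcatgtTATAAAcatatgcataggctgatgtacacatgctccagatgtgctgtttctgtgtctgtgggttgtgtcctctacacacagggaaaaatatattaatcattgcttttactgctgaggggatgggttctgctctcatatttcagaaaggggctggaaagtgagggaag
Col5a1: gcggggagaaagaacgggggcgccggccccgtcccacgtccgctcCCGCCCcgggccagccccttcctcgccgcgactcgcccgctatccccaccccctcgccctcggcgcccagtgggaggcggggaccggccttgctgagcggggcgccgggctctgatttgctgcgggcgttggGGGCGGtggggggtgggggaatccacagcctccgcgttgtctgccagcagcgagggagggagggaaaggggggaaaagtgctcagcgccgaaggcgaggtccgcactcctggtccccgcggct
Col4a1: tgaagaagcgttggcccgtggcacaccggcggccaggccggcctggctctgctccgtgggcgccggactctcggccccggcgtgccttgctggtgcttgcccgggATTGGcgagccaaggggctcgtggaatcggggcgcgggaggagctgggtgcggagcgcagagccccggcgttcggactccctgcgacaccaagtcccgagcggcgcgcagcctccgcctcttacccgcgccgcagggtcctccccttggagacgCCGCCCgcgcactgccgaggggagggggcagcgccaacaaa
Col4a2: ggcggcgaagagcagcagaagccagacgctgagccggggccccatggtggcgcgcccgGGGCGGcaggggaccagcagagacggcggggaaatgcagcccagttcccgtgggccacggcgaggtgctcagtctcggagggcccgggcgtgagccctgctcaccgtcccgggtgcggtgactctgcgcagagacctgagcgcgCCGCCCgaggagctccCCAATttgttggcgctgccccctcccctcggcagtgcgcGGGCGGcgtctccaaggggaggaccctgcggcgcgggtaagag
The Col4a1 and Col4a2 windows face opposite ways and share 78 bases, since these genes start beside each other on opposite strands. The windows differ in composition among chains that rose together. Col3a1 holds TATAAA, beginning at position −117 from its start, and neither other motif. Col1a2 holds CCAAT on both strands and GGGCGG at −205 and −188, and Col5a1 holds GGGCGG at −205 and −73. Over all 32851 windows of the table, TATAAA was present in 13.6%, CCAAT in 37.4% and GGGCGG in 35.7%. Among the 24 windows of measured collagens the shares were 8.33%, 37.5% and 58.3%. These matches describe letters only.

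Before the results, 4 facts about the arrays are needed. Ffar4 could not check the genotype labels, since its probe set averaged 1.61, below the filter, and its group means were 0.23 in WT ND, 1.41 in WT HFD, 2.48 in KO ND and 2.31 in KO HFD. The tissue matched its label: all 7 myofibre markers (Acta1, Ckm, Mb, Myh4, Myh2, Tnnt3, Pvalb) averaged 13.12 to 13.97 on the log2 scale. As a measure of RNA quality, the log2 signal of the 3′ end of control transcripts minus that of the 5′ end averaged −0.02 ± 0.09 in WT ND, 0.18 ± 0.02 in WT HFD, 0.07 ± 0.06 in KO ND and 0.16 ± 0.13 in KO HFD (SD, n = 3). WT HFD replicate 2 stood apart from its group in collagens and in fat and macrophage markers, and counts of calls are given with and without it. KO HFD replicate 1 was the highest array for most fibrillar chains. No batch is given, and mouse numbers cover different ranges in the 4 groups, so cohort and group cannot be told apart.

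In KO muscle 5 of 8 fibrillar and 1 of 3 type VI chains rose with the high fat diet, beside 2.66% of all genes. In WT muscle 0 collagens passed, beside 6.06% of all genes in either direction. No collagen passed the test of whether the diet effect differed between genotypes. The KO count fell to as low as 0 when 1 array was left out. On the high fat diet, 3 of the 8 fibrillar and 1 of the 3 type VI chains were higher in KO than WT. Over all genes 0.511% were. These statements share arrays, since the diet effect in KO and the genotype effect on the high fat diet both use the KO HFD arrays. Tests were made with limma over 11345 genes, and a gene was called at a Benjamini-Hochberg adjusted p below 0.05.

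For HFD against ND in KO, 6 of 25 measured collagens rose and 0 fell, beside 2.66% of all genes that rose and 1.88% that fell. They were Col1a1, Col1a2, Col3a1, Col5a1, Col5a2 and Col6a2. KO HFD arrays lay wholly above KO ND for 10 collagens and wholly below for 1, where 16.3% and 10.2% of all genes did so. The 10 include Col9a1, whose KO ND mean (3.44) lies below the filter value. Differences were above 0 in 20 of 25, where 57.5% of all genes were. The median difference of the 25 was 0.38 on the log2 scale, and that of all genes 0.05. The count of 6 depends on single mice: it was 0 without KO HFD replicate 1, KO HFD replicate 3 or KO ND replicate 2, 2 without KO ND replicate 1 and 3 without KO ND replicate 3. With each array centred on its median, which moves the median of all genes in this comparison by −0.12, 2 collagens rose (Col3a1 and Col5a1) and Col7a1 fell. Over all genes 99 then rose and 314 fell, against 302 and 213 in the main fit. Adding that 3′ minus 5′ value to the model left 2 calls, and dropping the intensity trend of the variance prior left 0.

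For KO against WT on the high fat diet, 4 of 25 rose (Col1a1, Col3a1, Col5a2 and Col6a2) and 0 fell, beside 0.511% of all genes that rose and 0.220% that fell. Arrays of KO HFD lay wholly above WT HFD for 16 collagens and wholly below for 1, where 11.0% and 8.39% of all genes did so. The 16 include Col9a1 and Col12a1, whose WT HFD means (3.71 and 3.30) lie below the filter value. Differences were above 0 in 22 of 25, where 53.9% of all genes were. The median difference was 0.86, against 0.03 over all genes. Without WT HFD replicate 2 there were 11 calls, all higher: the 4 above with Col1a2, Col4a1, Col5a1, Col6a1, Col6a3, Col15a1 and Col18a1. Of these, Col15a1 passed the filter only through the KO groups, since both its WT means lie below the filter value. Leaving out WT HFD replicate 3 gave 0, and leaving out WT HFD replicate 1, KO HFD replicate 1 or KO HFD replicate 3 gave 1, Col1a1. A fit on these 2 groups alone called 0, as did one without the intensity trend, and median centring left 2, Col1a1 and Col3a1. Centring took the calls over all genes in this comparison from 83 to 41.

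For HFD against ND in WT, limma called 0 collagens, beside 6.06% of all genes in either direction (3.07% higher and 2.99% lower), and 0 had an unadjusted p below 0.05. Groups were apart for 1 collagen, the lower Col19a1, where 15.7% of all genes lay apart upward and 11.1% downward. Differences were above 0 in 10 of 25, where 55.3% of all genes were. The median difference was −0.11, against 0.04 over all genes. For KO against WT on the normal diet limma also called 0, beside 0.414% of all genes (0.291% higher and 0.123% lower), with 4 collagens at an unadjusted p below 0.05. Here 3 collagens were apart upward and 1 downward, where 9.25% and 7.72% of all genes were, and 23 of 25 differences were above 0, where 53.3% of all genes were. The 3 include Col15a1, with a WT ND mean (3.66) below the filter value. The downward one was Col9a1, with a KO ND mean (3.44) below it. The median of 0.36 compares with 0.02 over all genes.

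**Figure D1:**
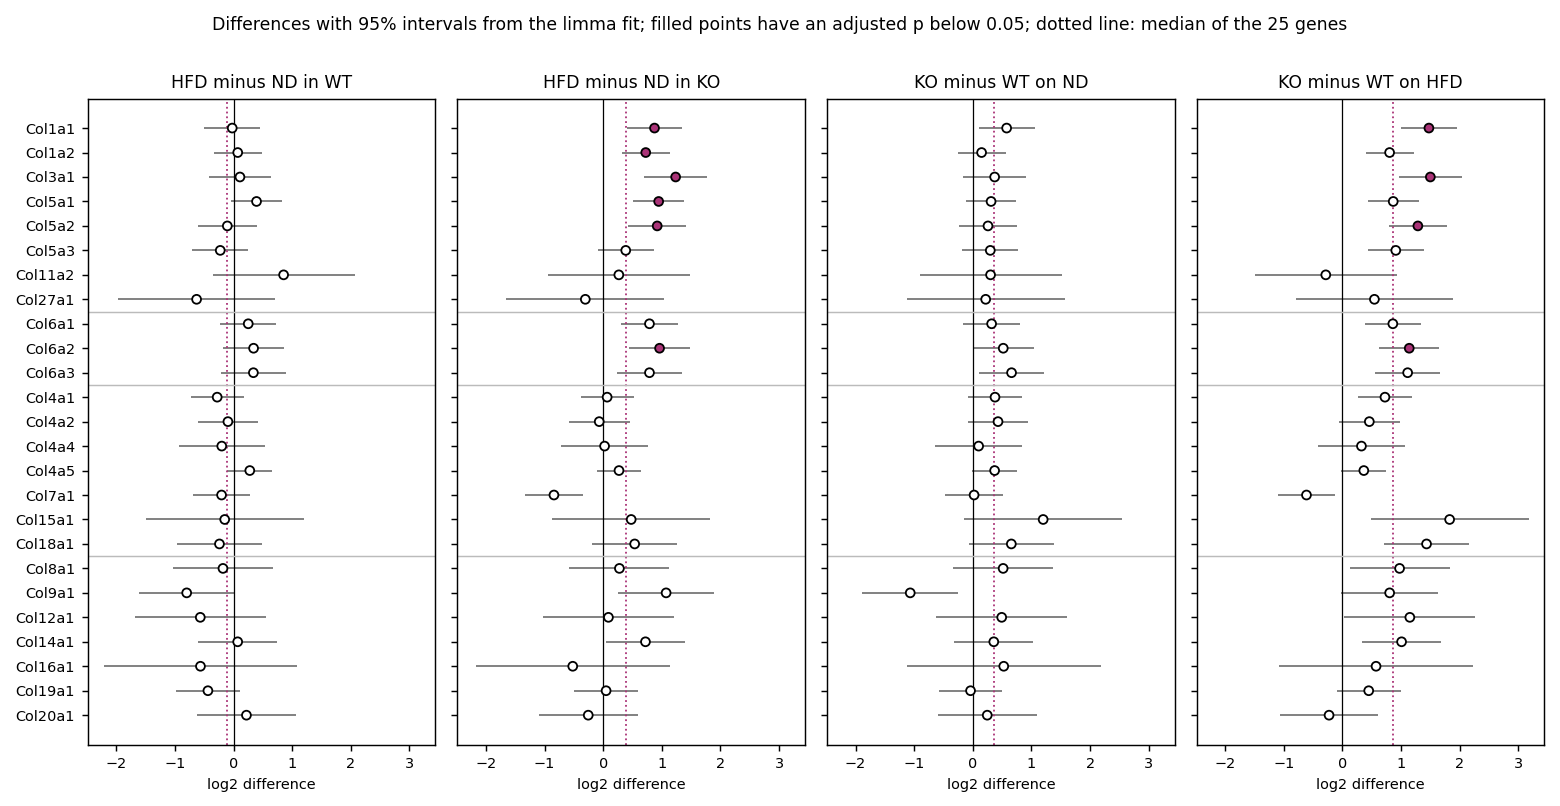
Log2 differences of 25 collagens in 4 comparisons of 3 against 3 mice, with 95% intervals from the limma fit as lines; filled points passed an adjusted p below 0.05, and the dotted line is the median of the 25. Filled points lie in the HFD against ND comparison in KO (6) and in KO against WT on HFD (4), among the fibrillar and type VI chains.

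Type III collagen had the largest diet difference in KO among the 25 measured. Col3a1, whose chain forms type III, a thin-fibril collagen of pliable tissue, read 10.88, 10.37 and 11.04 in WT ND, 10.53, 11.46 and 10.63 in WT HFD, 11.27, 10.84 and 11.29 in KO ND, and 12.75, 12.02 and 12.34 in KO HFD. All KO HFD arrays were above the other 9, and WT HFD replicate 2 was the highest of those 9. Col3a1 rose with the diet in KO by 1.24 ± 0.25 (SE, 2.35-fold, adjusted p = 0.0166) and was 1.50 ± 0.25 higher in KO than in WT on HFD (2.82-fold, adjusted p = 0.0238). In WT the diet difference was 0.11 ± 0.25, with a 95% interval of −0.43 to 0.65, and −0.19 without WT HFD replicate 2. On the normal diet the genotypes differed by 0.37 (−0.16 to 0.91), which did not pass.

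The chains of type I collagen, the main load-bearing fibril protein, behaved less alike. Col1a1 read 6.59, 6.71 and 6.89 in WT ND, 6.93, 6.78 and 6.40 in WT HFD, 7.40, 7.10 and 7.42 in KO ND, and 8.76, 7.89 and 7.89 in KO HFD. The KO arrays lay above the WT arrays on each diet, and KO HFD above KO ND. Col1a1 rose by 0.87 ± 0.22 with the diet in KO (1.83-fold, adjusted p = 0.0423) and by 1.47 ± 0.22 with the knockout on HFD (2.78-fold, adjusted p = 0.0105). On ND the genotype difference was 0.58 (0.10 to 1.05, adjusted p = 0.330). Its partner Col1a2 read 10.78, 10.53 and 10.59 in WT ND, 10.27, 11.14 and 10.71 in WT HFD, 10.68, 10.72 and 10.95 in KO ND, and 11.78, 11.18 and 11.56 in KO HFD. KO HFD was above every other group, by little over WT HFD replicate 2. Col1a2 rose by 0.73 ± 0.19 with the diet in KO (1.65-fold, adjusted p = 0.0473), and its genotype difference on HFD was 0.80 ± 0.19 (adjusted p = 0.0671).

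Type V chains, which start and limit the thickness of type I fibrils, moved with type III. Col5a1 read 7.62, 7.03 and 7.17 in WT ND, 7.35, 7.99 and 7.65 in WT HFD, 7.90, 7.38 and 7.48 in KO ND, and 8.66, 8.30 and 8.63 in KO HFD. The KO HFD arrays were the 3 highest, and the other groups overlapped. Col5a1 rose by 0.95 ± 0.20 with the diet in KO (1.93-fold, adjusted p = 0.0212) and was 0.87 ± 0.20 higher in KO on HFD (adjusted p = 0.0618). In WT its diet difference was 0.39 (−0.04 to 0.82, adjusted p = 0.265), which did not pass, and 0.23 without WT HFD replicate 2.

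Col5a2 read 8.28, 8.12 and 8.57 in WT ND, 7.91, 8.69 and 8.05 in WT HFD, 8.57, 8.33 and 8.85 in KO ND, and 9.95, 9.11 and 9.46 in KO HFD. Again KO HFD stood above all other arrays, led by replicate 1. It rose by 0.92 ± 0.23 with the diet in KO (1.89-fold, adjusted p = 0.0418) and by 1.29 ± 0.23 with the knockout on HFD (2.44-fold, adjusted p = 0.0277). Col5a3, the less widespread type V chain, passed in neither comparison. Its differences were 0.38 for the diet in KO (adjusted p = 0.367) and 0.91 for the genotype on HFD (adjusted p = 0.0702). Col11a2 and Col27a1, fibrillar chains known from cartilage, were dim and variable: their intervals for the diet in KO ran from −0.94 to 1.48 and from −1.65 to 1.04.

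**Figure D2:**
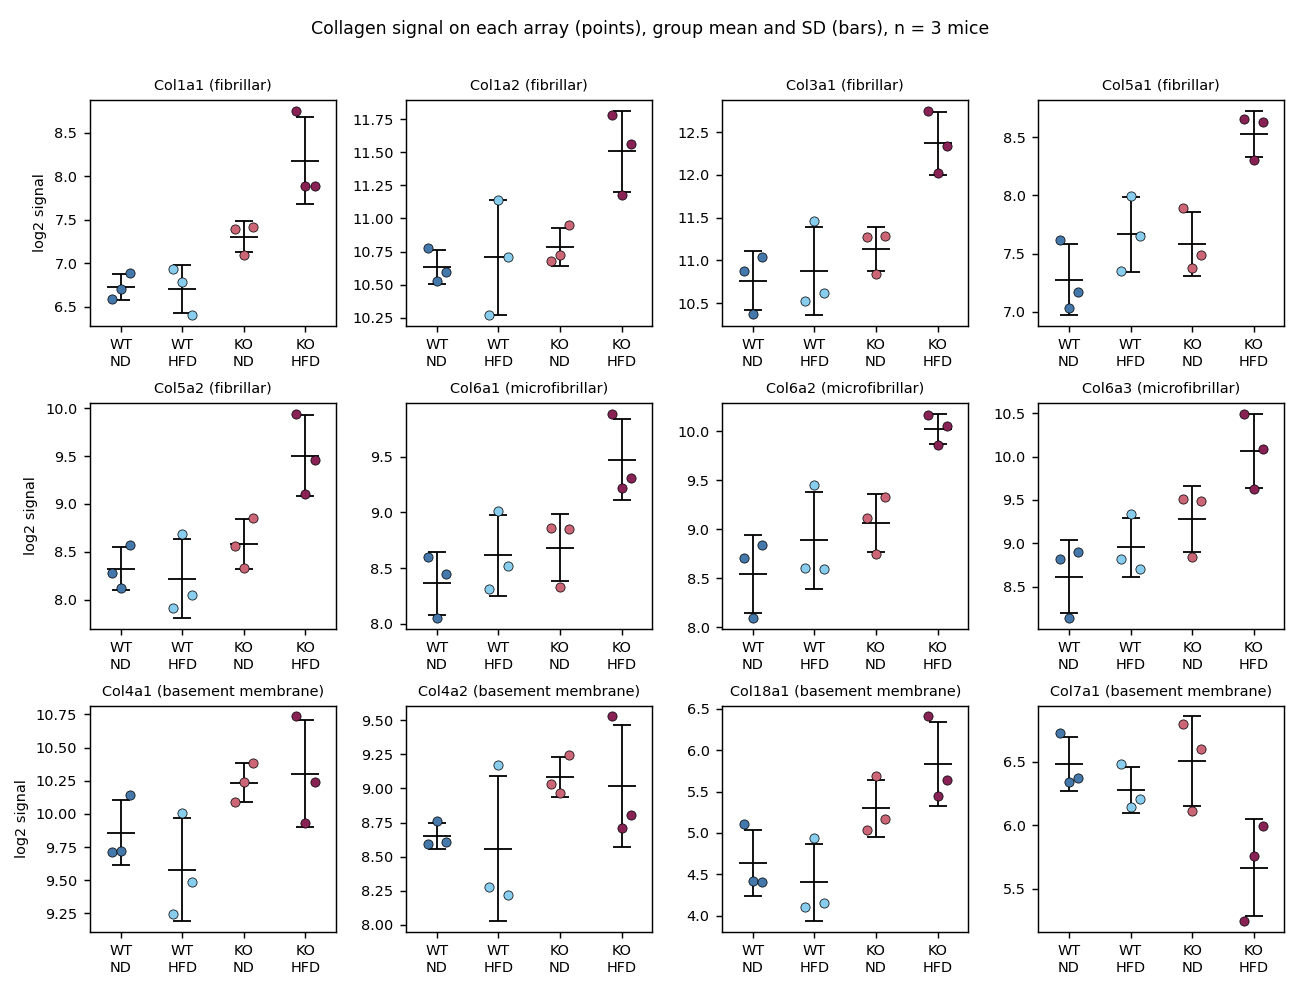
Log2 signal (vertical axis) of 12 collagens in the 4 groups on the horizontal axis; points are single mice, long bars the group mean and short bars 1 SD, n = 3. KO HFD mice read 12.02 to 12.75 for Col3a1, above all others, whereas the groups of Col4a1 overlap and Col7a1 is lowest in KO HFD.

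All 3 measured chains of type VI, whose mutations cause congenital muscular dystrophy, had their highest readings in KO HFD. Col6a1 read 8.60, 8.05 and 8.44 in WT ND, 8.31, 9.01 and 8.52 in WT HFD, 8.86, 8.33 and 8.85 in KO ND, and 9.89, 9.22 and 9.31 in KO HFD. KO HFD did not overlap any group, though its lowest array was close to WT HFD replicate 2. The diet difference in KO was 0.79 ± 0.22 (adjusted p = 0.0615) and the genotype difference on HFD 0.86 ± 0.22 (adjusted p = 0.0833), so neither passed.

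Col6a2 was the type VI chain that passed both. It read 8.71, 8.09 and 8.84 in WT ND, 8.61, 9.46 and 8.60 in WT HFD, 9.12, 8.74 and 9.33 in KO ND, and 10.17, 9.86 and 10.05 in KO HFD. The KO HFD arrays were tight (SD 0.16) and above the rest. Col6a2 rose by 0.96 ± 0.24 with the diet in KO (1.95-fold, adjusted p = 0.0400) and by 1.14 ± 0.24 with the knockout on HFD (2.20-fold, adjusted p = 0.0481).

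Col6a3, the largest type VI chain, read 8.82, 8.14 and 8.90 in WT ND, 8.83, 9.34 and 8.70 in WT HFD, 9.51, 8.84 and 9.48 in KO ND, and 10.49, 9.63 and 10.08 in KO HFD. The group means were 8.62, 8.96, 9.28 and 10.07, with KO HFD apart from the others and overlap among the other groups. Its differences were 0.79 for the diet in KO (adjusted p = 0.101) and 1.11 for the genotype on HFD (adjusted p = 0.0645). In WT the diet differences of Col6a1, Col6a2 and Col6a3 were 0.25, 0.34 and 0.34, and none passed. Without WT HFD replicate 2 they were 0.05, 0.06 and 0.15. Col6a4 and Col6a5 were below the filter, at means of 3.03 and 2.86.

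Basement membrane collagens did not pass with the diet in either genotype. Col4a1, a chain of the common type IV network, read 9.71, 9.72 and 10.14 in WT ND, 9.24, 10.01 and 9.48 in WT HFD, 10.09, 10.24 and 10.38 in KO ND, and 10.73, 9.93 and 10.24 in KO HFD. KO ND and KO HFD overlapped fully. The diet difference in KO was 0.07 (−0.39 to 0.52), and the genotype difference on HFD was 0.72 (0.27 to 1.18, adjusted p = 0.122). A second Col4a1 probe set gave −0.23 and −0.09 for these, so the genotype value rests on 1 probe set.

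Col4a2, its partner chain, read 8.59, 8.76 and 8.60 in WT ND, 8.28, 9.17 and 8.22 in WT HFD, 9.03, 8.97 and 9.25 in KO ND, and 9.53, 8.71 and 8.81 in KO HFD. The KO ND arrays were all above WT ND, and on HFD the groups overlapped. Its diet difference in KO was −0.07 (−0.58 to 0.45), so an increase of the size seen for Col3a1 lies outside the interval. Col4a4 and Col4a5, chains of specialised basement membranes, gave 0.02 (−0.71 to 0.76) and 0.27 (−0.11 to 0.65). Col4a3 and Col4a6 were below the filter, at 3.74 and 3.67.

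Col18a1 and Col15a1, proteoglycan-like collagens of the basement membrane zone, had their highest means in the KO groups. Col18a1, whose end is released as endostatin, read 5.10, 4.42 and 4.40 in WT ND, 4.11, 4.94 and 4.15 in WT HFD, 5.03, 5.69 and 5.17 in KO ND, and 6.41, 5.45 and 5.64 in KO HFD. On HFD the KO arrays lay above the WT arrays, and on ND they overlapped by 1 array. With the diets averaged, Col18a1 rose with the knockout by 1.04 ± 0.24 (adjusted p = 0.0457). Its difference on HFD was 1.43 ± 0.34 (adjusted p = 0.0651).

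Col15a1 read 4.0, 2.94 and 4.05 in WT ND, 2.66, 5.23 and 2.65 in WT HFD, 5.23, 4.42 and 4.93 in KO ND, and 6.06, 5.25 and 4.71 in KO HFD. WT HFD replicate 2 read as high as the KO arrays while its group mates were at the low end, below the filter. Col15a1 passed the filter through the KO groups (means 4.86 and 5.34), while both WT means (3.66 and 3.51) lie below 3.78. Neither genotype difference passed with all arrays in (adjusted p = 0.515 on ND and 0.183 on HFD), and their sizes rest on the dim WT signal.

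Col7a1 went the other way. Its product forms anchoring fibrils, known mainly from skin. It read 6.73, 6.34 and 6.37 in WT ND, 6.48, 6.14 and 6.21 in WT HFD, 6.80, 6.11 and 6.60 in KO ND, and 5.24, 5.76 and 5.99 in KO HFD. The KO HFD arrays were the 3 lowest. The diet difference in KO was −0.84 ± 0.23 (adjusted p = 0.0533), and with the genotypes averaged Col7a1 fell by 0.52 ± 0.16 on HFD (adjusted p = 0.0471; 0.0987 without WT HFD replicate 2).

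None of the 7 measured collagens of other kinds passed in any comparison of groups. Col14a1, a fibril-associated collagen of fascia and tendon, was nearest to the fibrillar pattern: its groups averaged 6.18 ± 0.46 in WT ND, 6.25 ± 0.73 in WT HFD, 6.54 ± 0.18 in KO ND and 7.26 ± 0.24 in KO HFD (SD). KO HFD did not overlap the others, with differences of 0.72 for the diet in KO (adjusted p = 0.214) and 1.01 for the genotype on HFD (adjusted p = 0.138). Col12a1, a related fibril-associated chain, and Col8a1, a network former of vessel walls, were 1.15 (0.03 to 2.26) and 0.97 (0.12 to 1.83) higher in KO on HFD, with adjusted p of 0.324 and 0.277. The size for Col12a1 rests on a WT HFD mean (3.30) below the filter value. A second Col12a1 probe set gave 0.44 on HFD and −0.45 on ND, where the one used gave 0.49 on ND. Col9a1, a cartilage collagen, was at −1.07 with the knockout on ND and at 0.80 on HFD, with no overlap either time, and neither passed (adjusted p = 0.297 and 0.348). Its KO ND and WT HFD means (3.44 and 3.71) lie below the filter value. Col16a1 varied widely, with an SD of 2.17 in KO ND, where replicate 1 read 8.85 and replicate 3 read 4.63.

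Below the filter were 17 collagens with means of 0.41 to 3.74, and for these the arrays give little. Of the 25 measured, Col9a1, Col11a2, Col12a1 and Col15a1 had at least 1 group mean below 3.78. In 5 of the 17 (Col4a3, Col4a6, Col22a1, Col23a1 and Col24a1) at least 1 group mean was above 3.78. Col24a1, a fibrillar chain, averaged 2.39 in WT ND, 3.13 in WT HFD, 3.79 in KO ND and 4.30 in KO HFD. The others were highest elsewhere: Col4a6, Col22a1 and Col23a1 in WT ND (4.37, 4.38 and 3.96) and Col4a3 in KO ND (4.53). Just inside the filter were Col11a2 at 3.90 and Col12a1 at 3.99, and just outside Col4a3 at 3.74 and Col4a6 at 3.67. Col6a6 and Col28a1 had no probe set in the annotation used.

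**Figure D3:**
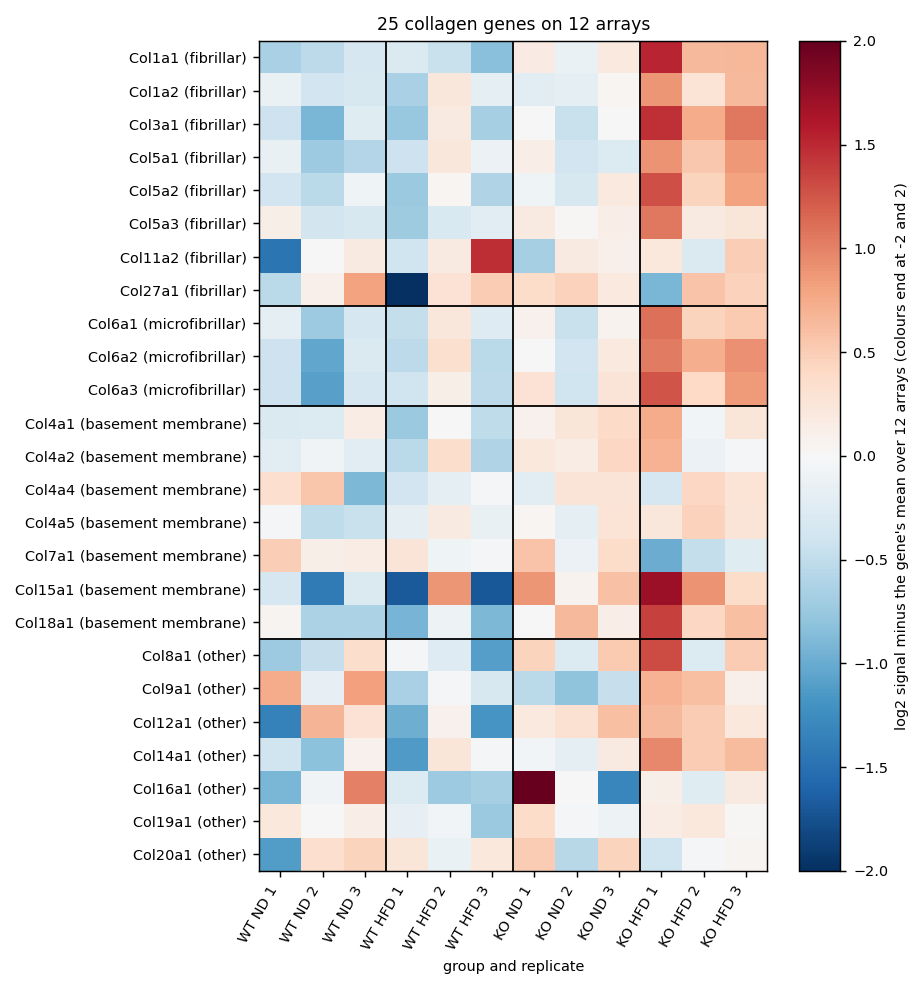
Log2 signal of 25 collagens (rows, by class) on 12 arrays (columns, by group) minus the gene's mean over the arrays; red is higher and blue lower, and colours end at −2 and 2. The KO HFD columns are red for the type I, III, V and VI chains and blue for Col7a1, and the dim collagens vary within groups.

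With the genotypes averaged, 4 of 25 rose on HFD (Col3a1, Col5a1, Col6a1 and Col6a2) and 1 fell (Col7a1), beside 7.49% and 6.19% of all genes. Differences were above 0 in 16 of 25, where 59.1% of all genes were. Col5a1 rose by 0.67 ± 0.14 (adjusted p = 0.00822). It was called in each of 19 alternative settings, whereas the count of 5 fell to 1 without WT ND replicate 2, to 2 without KO HFD replicate 1 or KO ND replicate 2, and to 3 without WT ND replicate 3, WT HFD replicate 2 or 3, KO ND replicate 1 or 3, or KO HFD replicate 3. With the diets averaged, 6 of 25 rose with the knockout (Col1a1, Col3a1, Col5a2, Col6a2, Col6a3 and Col18a1) and 0 fell, beside 0.899% and 0.714% of all genes. Here 23 of 25 differences were above 0, where 54.3% of all genes were. Col1a1 had the lowest adjusted p, with a rise of 1.03 ± 0.16 (adjusted p = 0.00756), and was called in all 19 settings. For both genes these settings kept the probe set of the main fit. In a limma fit of every probe set past the filter, their second probe sets did not pass. That of Col1a1 gave 0.56 for the averaged genotype (adjusted p = 0.493), and that of Col5a1 0.18 for the averaged diet (adjusted p = 0.714).

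The genotype count of 6 rose to 12 without WT HFD replicate 2. It was 1 without WT ND replicate 2, KO ND replicate 3 or KO HFD replicate 1, and 2 without WT HFD replicate 1 or 3, KO ND replicate 1 or KO HFD replicate 3. These averages use the same arrays as the separate comparisons and add no independent samples.

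Whether the diet effect differed between genotypes was tested as an interaction. By limma 0 collagens passed, beside 0.141% of all genes (0.0793% higher and 0.0617% lower), and 5 had an unadjusted p below 0.05 (Col1a1, Col1a2, Col3a1, Col5a2 and Col9a1). Of the 25 interaction values 21 were above 0, where 51.3% of all genes were. For the 6 type I, III and V chains the diet difference in KO exceeded that in WT by 0.55 to 1.13. Col3a1 was at the top with 1.13 (0.37 to 1.88, adjusted p = 0.295). The 3 type VI chains gave 0.45 to 0.62 and the 4 type IV chains −0.01 to 0.35. So a call in KO and none in WT is not shown to be a difference between genotypes.

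Genes that act on collagens gave a mixed picture. The lists are read against the percentages of all genes called that are given for each comparison. Of 18 measured genes for collagen folding and modification, 1 rose with the diet in KO and on HFD with the knockout: Sparc, a collagen-binding matrix protein, by 0.78 (adjusted p = 0.0444) and 1.02 (adjusted p = 0.0358). Sparc averaged 10.30 in WT ND, 10.55 in WT HFD, 10.79 in KO ND and 11.57 in KO HFD. With the genotypes averaged 2 of the 18 rose on HFD: Sparc by 0.51 (adjusted p = 0.0288) and Plod3, a lysyl hydroxylase, by 0.45 (adjusted p = 0.0376). The collagen chaperone Serpinh1 averaged 8.44 in KO ND and 8.93 in KO HFD and did not pass.

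Among 6 measured genes of propeptide removal and crosslinking, Pcolce, an enhancer of procollagen processing, rose with the diet in KO by 0.97 (adjusted p = 0.0265). Lox, a crosslinking enzyme, fell by 1.58 with the diet in WT (adjusted p = 0.0185). Its means were 8.17 in WT ND, 6.59 in WT HFD, 7.73 in KO ND and 7.51 in KO HFD. In that comparison no fibrillar chain passed.

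Of 9 fibril proteoglycans, 2 rose with the diet in KO: Prelp by 1.49 (adjusted p = 0.00856) and Bgn, biglycan, by 0.99 (adjusted p = 0.0167). Bgn also rose with the knockout on HFD by 1.07 (adjusted p = 0.0306). Prelp read 8.75 to 8.81 in KO HFD and 6.80 to 8.21 elsewhere. Dcn, decorin, the major fibril proteoglycan of muscle, averaged 12.42, 12.23, 12.32 and 12.25 in WT ND, WT HFD, KO ND and KO HFD.

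None of 6 measured collagen receptors passed in any of these 4 comparisons. Among 10 collagen-cleaving enzymes and inhibitors, Timp4 rose with the diet in WT by 0.62 (adjusted p = 0.0360), and Fap, a fibroblast protease, rose on HFD with the genotypes averaged by 0.58 (adjusted p = 0.0232). Of 12 other basement membrane genes, Lamc1, a laminin chain, fell with the diet in WT by 0.61 (adjusted p = 0.0375). In the 13 measured genes of the TGF-beta axis, a main inducer of collagen genes, 0 passed for the diet in KO. Tgfb1 itself, at a mean of 3.38, was below the filter and was not tested. Ccn2, connective tissue growth factor, fell by 2.07 with the diet in WT (adjusted p = 0.0231), and its difference in KO was −1.71 (adjusted p = 0.0586). With the genotypes averaged Ccn2 fell by 1.89 (adjusted p = 0.00322). Ltbp3 rose with the diet in WT by 0.39 (adjusted p = 0.0399), beside 0.25 in KO (adjusted p = 0.183), and by 0.32 on average (adjusted p = 0.0114). On HFD Ltbp1, which stores latent TGF-beta, fell by 0.72 with the knockout (adjusted p = 0.0458), and Smad3, a signal carrier, rose by 0.59 on HFD with the genotypes averaged (adjusted p = 0.0481).

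Some markers of cells that neighbour muscle fibres also passed in these comparisons, but most did not. With the diet in KO only adipocyte, macrophage and fibroblast markers had calls, and with the knockout on HFD only macrophage markers. In bulk RNA, a changed number of cells of a type and a changed RNA amount per cell cannot be told apart. Summed linear signal of 6 measured adipocyte markers was 13864 to 15549 in WT ND, 16107 to 24245 in WT HFD, 12779 to 17818 in KO ND and 23915 to 25018 in KO HFD. The upper end of WT HFD is replicate 2, which is also highest of its group for Col1a2, Col3a1, Col5a1, Col5a2, Col4a1, Col4a2, Col6a1, Col6a2 and Col6a3, but not for Col1a1 or Col4a4. With the diet in KO 2 of the 6 rose (Fabp4 by 0.53 and Lpl by 0.37), beside 2.66% of all genes. These 2, at mean log2 signals of 13.04 and 12.78, made up most of the summed adipocyte signal. The defining marker Adipoq averaged 10.36 in KO ND and 12.07 in KO HFD (adjusted p = 0.0980). Diet differences were above 0 in 6 of the 6 in KO and in 4 in WT. In WT 0 passed, beside 6.06% of all genes. Cidec averaged 7.35 in WT ND and 6.66 in WT HFD, Retn 7.52 and 6.82, and Adipoq 10.59 and 10.66. With the knockout on HFD 0 of the 6 passed, beside 0.511% of all genes that rose.

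Summed signal of 9 macrophage markers was 3483 to 3881 in WT ND, 1956 to 4149 in WT HFD, 2452 to 3347 in KO ND and 4094 to 7445 in KO HFD. With the diet in KO 3 of 9 rose (Lgals3 by 2.45, Adgre1 by 1.11 and Lyz2 by 1.07), beside 2.66% of all genes. On HFD 2 rose with the knockout (Lgals3 by 2.28 and Cd68 by 2.10), beside 0.511% of all genes. In each of these comparisons 8 of 9 differences were above 0, and Cd163 went the other way (−0.08 and −0.20). For 8 fibroblast markers the sums were 10830 to 12335, 10395 to 12887, 10217 to 12268 and 12661 to 13807 in the same order of groups. Gsn, at a mean log2 signal of 13.11, made up most of these sums. With the diet in KO 1 of the 8 rose (Dpt, dermatopontin, by 0.66), beside 2.66% of all genes, and 7 differences were above 0. With the diet in WT 1 of the 8 rose (Thy1 by 1.06), beside 3.07% of all genes. There 5 differences were above 0 and 3 below, among the latter Mfap5, at 9.51 in WT ND and 8.97 in WT HFD. In KO Thy1 was higher on HFD by 0.72 (adjusted p = 0.0855). The defining marker Pdgfra averaged 8.65, 8.45, 8.43 and 8.64 in that order of groups.

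Tendon and cartilage gave less signal. Of 8 tenocyte markers 5 were measured and 0 passed; their sums were 886 to 1140 in WT ND, 598 to 979 in WT HFD, 841 to 1192 in KO ND and 784 to 1066 in KO HFD. The tendon markers Tnmd and Scx averaged 4.40 and 4.54, while Thbs4, at 9.64, made up most of the tenocyte sums. Of 6 cartilage markers 5 were below the filter, and the remaining one, Sox9, averaged 6.16 in WT ND, 2.45 in WT HFD, 6.00 in KO ND and 3.13 in KO HFD. Both HFD means of Sox9 lie below the filter value, so no size is given for its difference. With the diet in WT 1 of 7 endothelial markers rose (Kdr by 1.24), beside 3.07% of all genes. Differences were above 0 in 6 of the 7, and Pecam1 averaged 6.83 in WT ND and 6.49 in WT HFD. No pericyte, smooth muscle or Schwann cell marker passed in the 4 comparisons of groups. The adipocyte marker Lep read 0.00 on the log2 scale on 1 WT ND array; no other adipocyte, macrophage or fibroblast marker measured reached so low. The part of these cell types in the collagen differences was not tested.

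**Figure D4:**
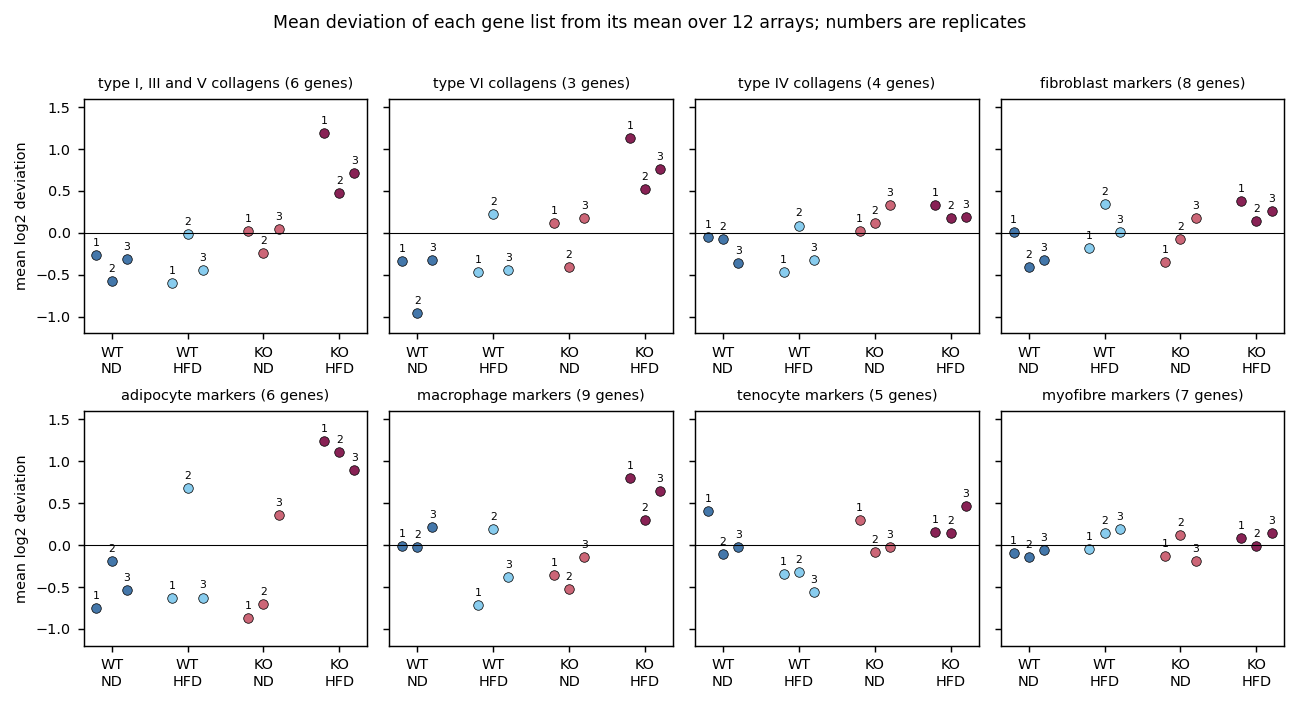
Mean over the genes of a list of the log2 signal minus each gene's mean over 12 arrays (vertical axis), for 3 collagen groups and 5 marker lists; each point is 1 mouse and its number the replicate. KO HFD mice lie at 0.47 to 1.19 for type I, III and V collagens and at 0.90 to 1.25 for adipocyte markers, and WT HFD replicate 2 is at 0.68 for the latter while its group mates are at −0.63.

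Chains varied together across arrays beyond their own groups. Over 12 arrays, which share the 4 group levels and each array's scaling, the pairs of type VI chains correlated at 0.96 to 0.97 (Pearson), and at 0.86 to 0.92 after each group's mean was removed. For Col3a1 with Col5a2 the values were 0.98 and 0.94, and for Col4a1 with Col4a2 0.87 and 0.83. The type I chains, which assemble into a common molecule, correlated at 0.79 and, within groups, at 0.24. Set against the mean of Col1a1, Col1a2, Col3a1, Col5a1 and Col5a2, the collagens most like it were Col6a1 (0.97), Col6a2 (0.96), Col6a3 (0.96) and Col14a1 (0.88), and Col7a1 was at −0.73 (within groups −0.21). These are descriptions and carry no test.

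Several collagens could be read by another probe set. In 16 genes with more than 1 probe set past the filter, all probe sets had the same sign in 14 for the diet in KO and in 13 for the genotype on HFD. For the diet in WT and the genotype on ND this held in 8 and 10. For the diet in KO, the next probe set gave 2.03 for Col1a1, 1.18 for Col1a2, 1.53 for Col3a1 and 1.16 for Col5a2, each above the value used. For the genotype on HFD they gave 1.44, 1.76, 2.20 and 1.43, of which that of Col1a1 was below the value used and did not pass (adjusted p = 0.191). On ND the second Col1a1 probe set gave −0.32, where the one used gave 0.58. A further Col1a2 probe set gave 0.44 and 0.57. The second Col5a1 probe set gave less, at 0.48 and 0.65, and did not pass. A dim second Col18a1 probe set was higher on HFD in WT by 1.62 (adjusted p = 0.0860), where the one used gave −0.24.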

How the data were processed

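The deposited table holds log2 values of MAS5 signals, the algorithm being named, without a version, in the submitters' processing notes. Of 45101 probe sets, 64 controls were left out and 34945 had 1 symbol. The brightest probe set by mean stood for each gene, and genes with a mean log2 value above 3.78 (13.8 on the linear scale) were tested: 11345 genes. limma 3.58.1 (R 4.3.3) fitted the 4 groups of 3 arrays together on 8 residual degrees of freedom, to which a variance prior following intensity added 5.42, with Benjamini-Hochberg adjustment over all genes tested. Errors are SE for differences and SD for levels. The number of arrays limits the precision. Each array is a different mouse per the labels, so p-values measure the spread between mice of a group. The script was tested on simulated data.

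Values in every array are given for the type I, III, V, VI and common type IV chains, Col15a1, Col18a1 and Col7a1. The members, partner lists and marker lists were chosen with earlier results of these data known. There were 9 alternative settings and 12 fits that each left out 1 array. Promoter windows came from RefSeq (GRCm38.p6), and were searched on both strands.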

Additional observations from a re-analysis of the deposited data

Results flagged for a closer look

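Col9a1, a cartilage collagen, had KO minus WT values of opposite sign on the 2 diets, and neither passed. The value was −1.07 on the normal diet (adjusted p = 0.297), with every KO array below every WT array, and 0.80 on the high fat diet (adjusted p = 0.348), with every KO array above. The interaction was 1.87 (95% interval 0.71 to 3.03), and did not pass by limma (adjusted p = 0.259). The KO ND and WT HFD means, 3.44 and 3.71, are below the filter value of 3.78. The other Col9a1 probe set, below the filter at a mean of 1.91, gave 1.29 and 1.10, the same sign on both diets.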

How the results depend on the processing

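No collagen called in any comparison changed its sign under the alternatives that kept 1 probe set per gene. Counted over called genes, comparisons and these alternatives, the call was kept 246 times and lost 162 times. Leaving out 1 array at a time gave 0 to 0 calls for the diet in WT, 0 to 7 for the diet in KO, 0 to 0 for the genotype on ND, 0 to 11 for the genotype on HFD, 1 to 7 for the averaged diet effect, 1 to 12 for the averaged genotype effect and 0 to 0 for the interaction. With no filter on low values there was 1 call for the diet in WT (Col9a3) and 3 for the averaged diet. Median centring gave 3 for the diet in KO, 2 for the genotype on HFD and 3 for the averaged diet. Over all genes it took the calls from 515 to 413, from 83 to 41 and from 1552 to 1195. The 3′ over 5′ covariate gave 2, 1 and 2 for the diet in KO, the averaged diet and the averaged genotype. Calls over all genes then went from 515 to 265, from 1552 to 522 and from 183 to 104. Without the intensity trend there were 0 for the diet in KO, 0 for the genotype on HFD, 1 for the averaged diet and 1 for the averaged genotype. Fitting only the groups compared gave 0 for the genotype on HFD. The cause was not tested. Median centring also turned the sign of 3 class medians near 0: basement membrane and other collagens with the diet in KO from 0.07 to −0.05 and from 0.09 to −0.03, and fibrillar with the diet in WT from 0.02 to −0.01. No paired analysis was possible because mouse numbers differ between the groups. Dim collagens near the filter give wide intervals, and 17 below it were not tested.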
